A study of Mus musculus with 3 samples.

Results

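The genes described here form the core of the JAK-STAT3 pathway and its negative feedback: the kinase genes Jak1, Jak2 and Tyk2, the transcription factor gene Stat3, the suppressor genes Socs1, Socs2, Socs3 and Cish, and the kinase genes Pim1 and Pim3. They were chosen by name, with earlier results of these data known. Their probes were found by matching the transcript accession of each non-control probe to the gene. All 10 genes were on the array, with 13 probes in 31 spots, out of 20659 genes named on an array of 39429 probes. The samples were mouse cells that the labels call embryonic stem cells (mESCs), of the genotypes LIFR KO, gp130 KO and wildtype, with 1 single-colour Agilent array for each. The labels describe the culture only as standard. Whether LIF was in the medium, how the knockouts were made and whether each is 1 clone is not given in the sources used here.

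LIF is the cytokine that keeps mouse embryonic stem cells undifferentiated. It binds LIFR, which pairs with gp130, and the kinases JAK1, JAK2 and TYK2 bound to these receptor chains then phosphorylate the receptors and STAT3. Phosphorylated STAT3 enters the nucleus and switches on target genes, among them Socs3, whose protein binds gp130 and the kinases and shuts the signal down, so that its transcript is often used as a readout of the pathway. The PIM kinases are serine/threonine kinases that are active as soon as they are made, which places their control at the level of their transcripts.

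With 1 array per genotype there was no replicate, no test was possible, and each difference is one between 2 arrays. Signals are given as a percentage of the array's own 75th percentile of processed signal (the scaled signal), ratios are on the log2 scale of the scaled signal, and a gene was counted as higher or lower when 2 arrays differed at least 2-fold. The interval beside a ratio is a 95% interval from the scanner software's own error of each spot and leaves out the scatter between cultures. In such whole-population samples, fewer cells of a type and less RNA per cell cannot be told apart. All 31 spots were well above background on each array. Of the spots outside the controls, 65 lay in stray light, a local background above 100 that was found on the LIFR KO array, where it reached 25884. None of the 31 spots was among them, and their local background lay between 18 and 39.5.

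The markers of the labelled cell type were detected in part. Of 13 pluripotency markers, 8 were detected, the same number on each array, while Sox2, Zfp42, Dppa3, Fgf4 and Nr0b1 were below the detection limit on all of them. The summed scaled signals of the 13 were 346, 410 and 391% on the LIFR KO, gp130 KO and wildtype arrays. Pou5f1, at 3.03, 3.12 and 4.69%, was the dimmest of the 8. All 10 epithelial markers were detected on every array, with sums of 11256, 10946 and 10306% in the same order. Of 10 fibroblast markers 5 were detected on the LIFR KO array, 8 on the gp130 KO array and 8 on the wildtype array, and Pdgfrb and Lum were detected on none. Their summed scaled signals were 11825, 12924 and 11088%, of which Vim alone, a gene not limited to fibroblasts, gave 11706, 12809 and 10996%. All 4 blood cell markers on the array were detected on each, with sums of 188, 236 and 262%. The part of these other cell types in the results was not tested. The genotypes are those of the labels. The brightest of 3 Lifr probes had 3.996, 5.33 and 5.25% on the LIFR KO, gp130 KO and wildtype arrays, a log2 ratio of -0.39 for the LIFR KO array over wildtype. The only probe of Il6st, the gene of gp130, had 49.2, 45.9 and 49.5%. Neither probe was 2-fold apart between any arrays, and their place relative to the deletions is not given.

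Pim1 and Socs3 were the members that stood out on the LIFR KO array, and both were higher there than on the wildtype array. Pim1 was 3.33-fold and Socs3 2.58-fold higher. Cish was the only member past 2-fold on the gp130 KO array, where it was 2.04-fold lower. The receptor-bound kinases differed little on any array. Members at least 2-fold higher numbered 2 of 10 on the LIFR KO array, where 2.87% of the 14545 genes compared were higher, and none was lower, against 1.62% of all genes, or 4.49% either way. On the gp130 KO array none of the 10 was higher, against 1.61% of the 14917 genes compared. There 1 was lower, against 0.784%, or 2.39% either way. Members and lists were chosen with earlier results known. Shares set beside those of all genes, here and below, therefore describe a list and test no enrichment. The calls on the LIFR KO array were 63.9% higher genes, a share of 79.3% when each array was scaled to its median, so the balance of higher and lower calls depends on the scaling.

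**Figure D1:**
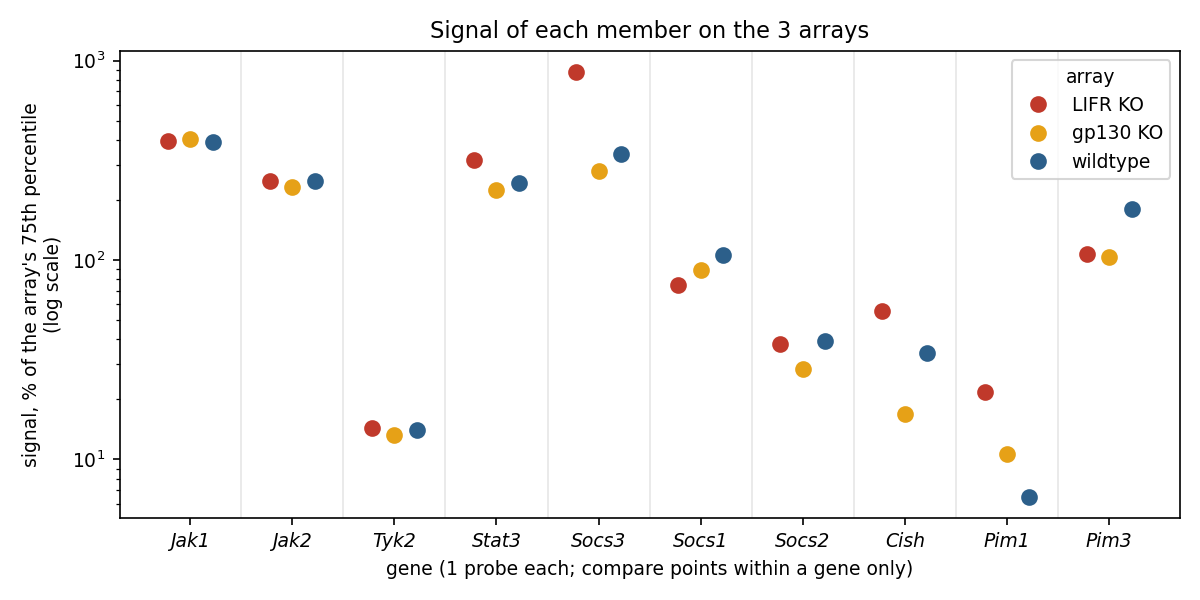
Signal of each of the 10 genes on the LIFR KO, gp130 KO and wildtype arrays (1 point per array, 1 probe per gene), as a percentage of the array's 75th percentile on a log axis. The 3 points of Jak1, Jak2 and Tyk2 nearly coincide, while Socs3, Cish and Pim1 are spread out with the LIFR KO array on top.

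The 3 kinase genes were the most even members. Jak1, whose kinase is the main one for gp130 signalling, had a scaled signal of 394% on the LIFR KO array, 403% on the gp130 KO array and 390.3% on the wildtype array. Jak2, also bound by gp130 and by the growth hormone and erythropoietin receptors, had 248, 233 and 249%. Tyk2, which serves the interferon and interleukin receptors as well, had 14.4, 13.2 and 14.1%. The highest array exceeded the lowest by 1.03-fold for Jak1, 1.07-fold for Jak2 and 1.09-fold for Tyk2, and every interval of these ratios held 0. For Jak1 the interval of the log2 ratio ran from -0.39 to 0.41 on the LIFR KO array over wildtype and from -0.35 to 0.45 on the gp130 KO array over wildtype, so differences within these bounds were not resolved. The order of the 3 arrays was not resolved for these genes.

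Stat3 was moderately higher on the LIFR KO array. Its main probe was printed in 10 spots, which gives a view of the scatter within an array. The unscaled signal of these spots was lowest at 2314, had a median of 2390.2 and was highest at 2464 on the LIFR KO array. The same 3 values were 1435, 1471 and 1538.5 on the gp130 KO array. On the wildtype array they were 1581, 1603 and 1706. The spots of the LIFR KO array did not overlap those of the other arrays, nor did those of the gp130 KO array overlap those of wildtype. How often the spots of other probes printed in repeat separated in this way was not counted. They are repeat spots of 1 hybridisation per genotype, so their scatter leaves out that between cultures. Unscaled signals also carry the brightness of the whole array, whose 75th percentile was 750 for LIFR KO, 652 for gp130 KO and 664 for wildtype.

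After scaling, the log2 ratio of Stat3 was 0.39 for the LIFR KO array over wildtype, with the ratios of single spots between 0.33 and 0.42 and an SD of 0.027 over 10 spots. For the gp130 KO array over wildtype it was -0.11, with single spots between -0.17 and -0.07. The scanner software's error of 0.20 on each of these ratios is larger than the scatter of the spots, and both intervals held 0, from -0.015 to 0.79 and from -0.51 to 0.29. A dimmer Stat3 probe for another transcript, at 14.6, 10.1 and 9.63% on the LIFR KO, gp130 KO and wildtype arrays, gave 0.60 for the LIFR KO array over wildtype and 0.07 for the gp130 KO array over wildtype. Both probes were thus higher on the LIFR KO array, and they differed in sign on the gp130 KO array.

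**Figure D2:**
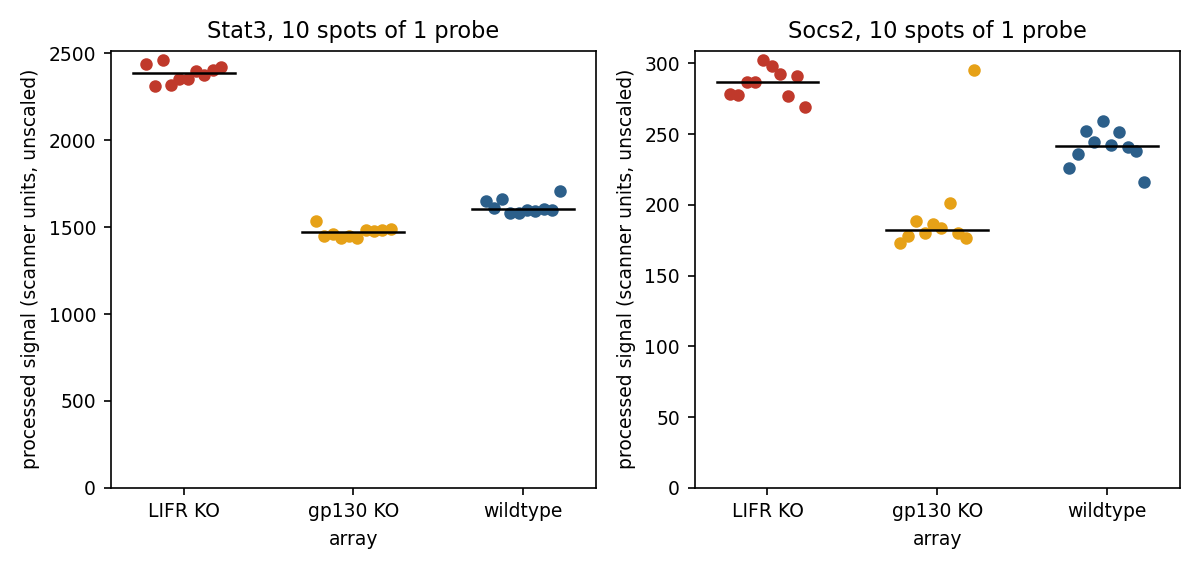
Unscaled processed signal of the probes of Stat3 and Socs2 that were printed in 10 spots, on the LIFR KO, gp130 KO and wildtype arrays, with 1 point per spot and a line at the median. The Stat3 spots form 3 tight groups, and 1 Socs2 spot of the gp130 KO array, at 295, lies far above the other 9.

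Socs3 was the suppressor gene that differed most from wildtype on the LIFR KO array. Its scaled signal was 876% on the LIFR KO array, 279% on the gp130 KO array and 339.6% on the wildtype array. The LIFR KO array was alone in being high, and the gp130 KO array was slightly below wildtype. The log2 ratio was 1.37 for the LIFR KO array over wildtype, with an interval from 0.97 to 1.77, and 248 of the 14545 genes compared had a higher one. For the gp130 KO array over wildtype it was -0.28, with an interval from -0.68 to 0.12 that held 0.

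Cish, whose protein CIS docks on activated cytokine receptors and is best known as a feedback gene of STAT5, took opposite directions on the knockout arrays. Its scaled signal was 55.5% on the LIFR KO array, 16.8% on the gp130 KO array and 34.2% on the wildtype array. The LIFR KO array was 1.62-fold higher than wildtype, a log2 ratio of 0.70 with an interval from 0.30 to 1.099. The gp130 KO array was 2.04-fold lower than wildtype, a log2 ratio of -1.03 with an interval from -1.43 to -0.62, which reaches on both sides of the 2-fold mark. Only 114 of the 14917 genes compared had a lower ratio on the gp130 KO array. With normexp background correction the ratio was -0.61, or -0.77 when fitted without stray light, which ends the 2-fold call.

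The other suppressors differed less. Socs1, whose protein blocks the JAK kinases directly and restrains interferon signalling, had 74.9% on the LIFR KO array, 88.9% on the gp130 KO array and 106% on the wildtype array. It was highest on wildtype, with log2 ratios of -0.51 for the LIFR KO array over wildtype, an interval from -0.91 to -0.10, and of -0.26 for the gp130 KO array over wildtype, an interval from -0.66 to 0.14. Socs2, a suppressor of growth hormone signalling, was read from the brightest of 3 probes, at 38.1, 28.3 and 39.2% on the LIFR KO, gp130 KO and wildtype arrays. It was lower on the gp130 KO array alone, with a log2 ratio of -0.47 and an interval from -0.87 to -0.07, and had -0.04 on the LIFR KO array.

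The 3 Socs2 probes gave log2 ratios of -0.47, -0.48 and -0.30 for the gp130 KO array over wildtype and of -0.04, -0.09 and 0.08 for the LIFR KO array over wildtype. The -0.30 is from the probe with 10 spots. In unscaled signal, 1 of them on the gp130 KO array had 295, while the median of the 10 was 182 and the lowest 173. This spot carried no outlier flag and is included in the value. On the LIFR KO array the 10 spots ran from 269 to 302 and on the wildtype array from 216 to 259, also unscaled. These ranges carry the brightness of the whole array, and the scaled log2 ratio of this probe was 0.08. With that spot included, all 3 probes placed Socs2 lowest on the gp130 KO array.

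Promoter sequences are shown for Socs3 and Pim1, the members past 2-fold on the LIFR KO array, and for the start of Cish, the member past 2-fold on the gp130 KO array. They are RefSeq sequences of GRCm38.p6, and 9 of the 10 members had a window, Pim1 with a pair of starts, so that 10 windows of 300 bases were searched, from 250 bases before to 50 after the start. STAT dimers bind TTCNNNGAA, which reads the same on both strands. Capitals mark matches to it, the coordinates are those of the printed bases, and each sequence is written 5′ to 3′ along the gene. The first start of Pim1 is shown.
Socs3, chr11:117969367-117969616, minus strand, 250 bases before the start: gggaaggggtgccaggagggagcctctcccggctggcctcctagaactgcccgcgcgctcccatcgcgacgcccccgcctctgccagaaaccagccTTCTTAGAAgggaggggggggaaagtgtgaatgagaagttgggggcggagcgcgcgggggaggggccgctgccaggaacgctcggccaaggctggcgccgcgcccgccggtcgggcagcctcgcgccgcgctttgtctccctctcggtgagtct
Cish, chr9:107296654-107296683, plus strand, from 5 bases before to 25 after the start: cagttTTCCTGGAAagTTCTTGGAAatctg
Pim1, chr17:29490535-29490784, plus strand, 250 bases before the start: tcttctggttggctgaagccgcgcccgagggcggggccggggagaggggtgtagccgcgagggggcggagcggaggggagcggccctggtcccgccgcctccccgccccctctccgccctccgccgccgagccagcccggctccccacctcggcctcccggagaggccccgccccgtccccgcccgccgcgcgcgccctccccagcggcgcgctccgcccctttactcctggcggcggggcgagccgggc

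Matches to TTCNNNGAA were in 2 of the 10 member windows, those of Socs3 and Cish, and in 8.30% of all 32851 windows of this length. Socs3 held TTCTTAGAA, whose first base lies 154 before the start. Cish held TTCCTGGAA at bases 1 to 9 and TTCTTGGAA at bases 12 to 20 after the start, and 0.457% of all windows held at least 2 matches. The windows of Pim1, Pim3, Stat3, Socs1 and the JAK genes held none. The STAT motif with a spacer of 4 bases and the AP-1 motif TGANTCA were in none of the 10 windows, against 6.95 and 7.81% of all windows, searched on both strands. The CRE motif TGACGTCA was in the Jak1 window and in 1.79% of all. A match describes these letters and shows no binding.

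The PIM genes differed from wildtype in opposite directions. Pim1, a kinase gene induced by STAT3 and STAT5 in many cells, had a scaled signal of 21.7% on the LIFR KO array, 10.6% on the gp130 KO array and 6.51% on the wildtype array. Both knockout arrays were above wildtype, the LIFR KO array by far the most. Its log2 ratio was 1.73 for the LIFR KO array over wildtype, with an interval from 1.30 to 2.17 that lies wholly past the 2-fold mark, and 150 of the 14545 genes compared had a higher one. For the gp130 KO array over wildtype it was 0.71, with an interval from 0.27 to 1.14. With normexp background correction the ratio on the LIFR KO array was 0.74, under 2-fold, or 1.01 when fitted without stray light, and that on the gp130 KO array 0.22 or 0.31. Its unscaled signal on the wildtype array was 43.3, where the lowest signal well above background was 6.94.

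Pim3, which together with Pim1 is known to favour self-renewal of mouse embryonic stem cells, had 108% on the LIFR KO array, 103% on the gp130 KO array and 179.6% on the wildtype array. The knockout arrays lay close together and both below wildtype. The log2 ratio was -0.74 for the LIFR KO array over wildtype, with an interval from -1.14 to -0.34, and -0.80 for the gp130 KO array over wildtype, with an interval from -1.20 to -0.40. Neither reached 2-fold, being 1.67-fold and 1.74-fold lower. Only 204 of the 14917 genes compared had a lower ratio than Pim3 on the gp130 KO array.

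**Figure D3:**
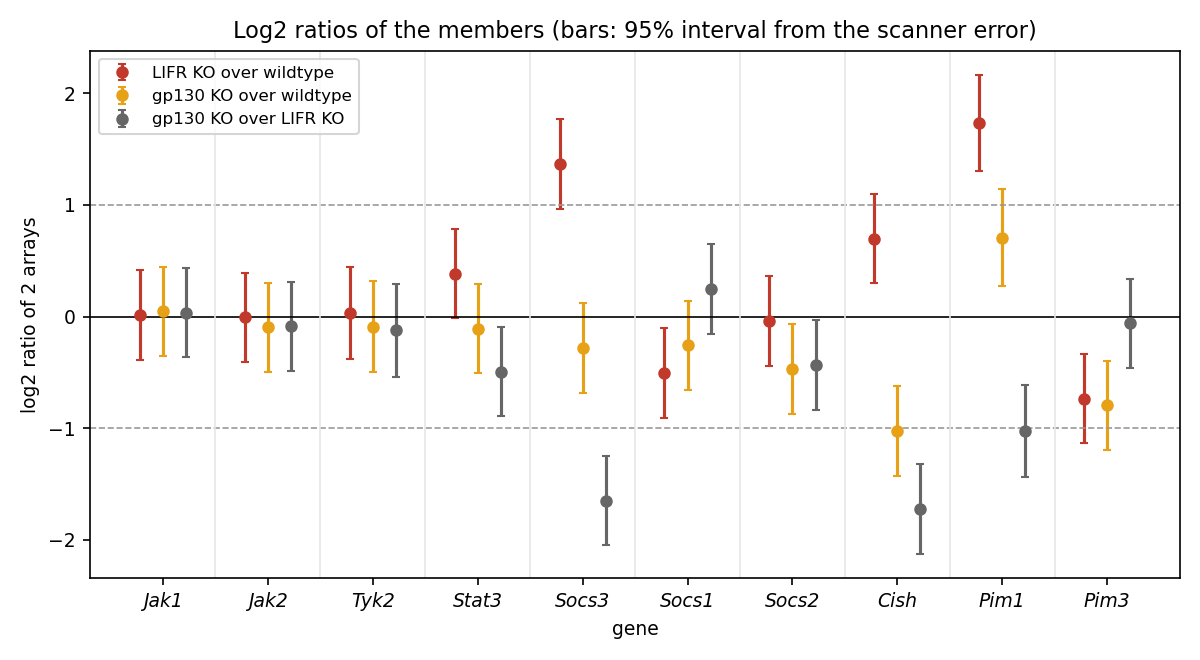
Log2 ratios of the 10 genes for the LIFR KO over wildtype, the gp130 KO over wildtype and the gp130 KO over LIFR KO arrays, with 95% intervals from the scanner error and dashed lines at 2-fold. Pim1 lies above 0 in both comparisons with wildtype and Pim3 below 0 in both, while Cish lies above 0 in one and below 0 in the other.

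Over the 10 members, the interval of the ratio lay above 0 for 3 on the LIFR KO array (Socs3, Cish and Pim1), below 0 for 2 (Socs1 and Pim3) and held 0 for 5. On the gp130 KO array it lay above 0 for 1 (Pim1), below 0 for 3 (Socs2, Cish and Pim3) and held 0 for 6. The share of all genes with an interval clear of 0 was not counted, so these numbers have no background to be read against. The median log2 ratio of the members was 0.02 on the LIFR KO array, where all genes compared had a median of -0.03, and -0.18 on the gp130 KO array, where all genes had 0.03. Both comparisons use the same wildtype array, so a high or low wildtype signal moves both ratios of a gene together.

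The direct comparison asks how the gp130 KO array differed from the LIFR KO array. It uses the same arrays once more and adds no new measurement. Cish, at 16.8% on the gp130 KO array against 55.5% on the LIFR KO array, was 3.30-fold lower, a log2 ratio of -1.72 with an interval from -2.13 to -1.32. Socs3, at 279% against 876%, was 3.14-fold lower, a log2 ratio of -1.65 with an interval from -2.05 to -1.25. Pim1, at 10.6% against 21.7%, was 2.04-fold lower, a log2 ratio of -1.03 with an interval from -1.44 to -0.61 that reaches on both sides of the 2-fold mark. The normexp corrections gave Pim1 -0.52 and -0.69, which ends that call. These 3 of 10 members were at least 2-fold lower on the gp130 KO array, against 2.05% of the 14760 genes compared, and none was higher, against 1.29%, or 3.35% either way.

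Stat3 was lower on the gp130 KO array as well, with a log2 ratio of -0.50 against the LIFR KO array and single spots between -0.55 and -0.46, and its other probe gave -0.53. The interval lay below 0 for 5 members (Socs2, Socs3, Cish, Stat3 and Pim1) and above 0 for none. Here too the share of all genes with such an interval was not counted. Pim3, at -0.06 with an interval from -0.46 to 0.34, was not resolved between the knockout arrays. The calls in this comparison were 38.7% higher genes, or 25.5% with each array scaled to its median and 20.8% with no scaling.

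**Figure D4:**
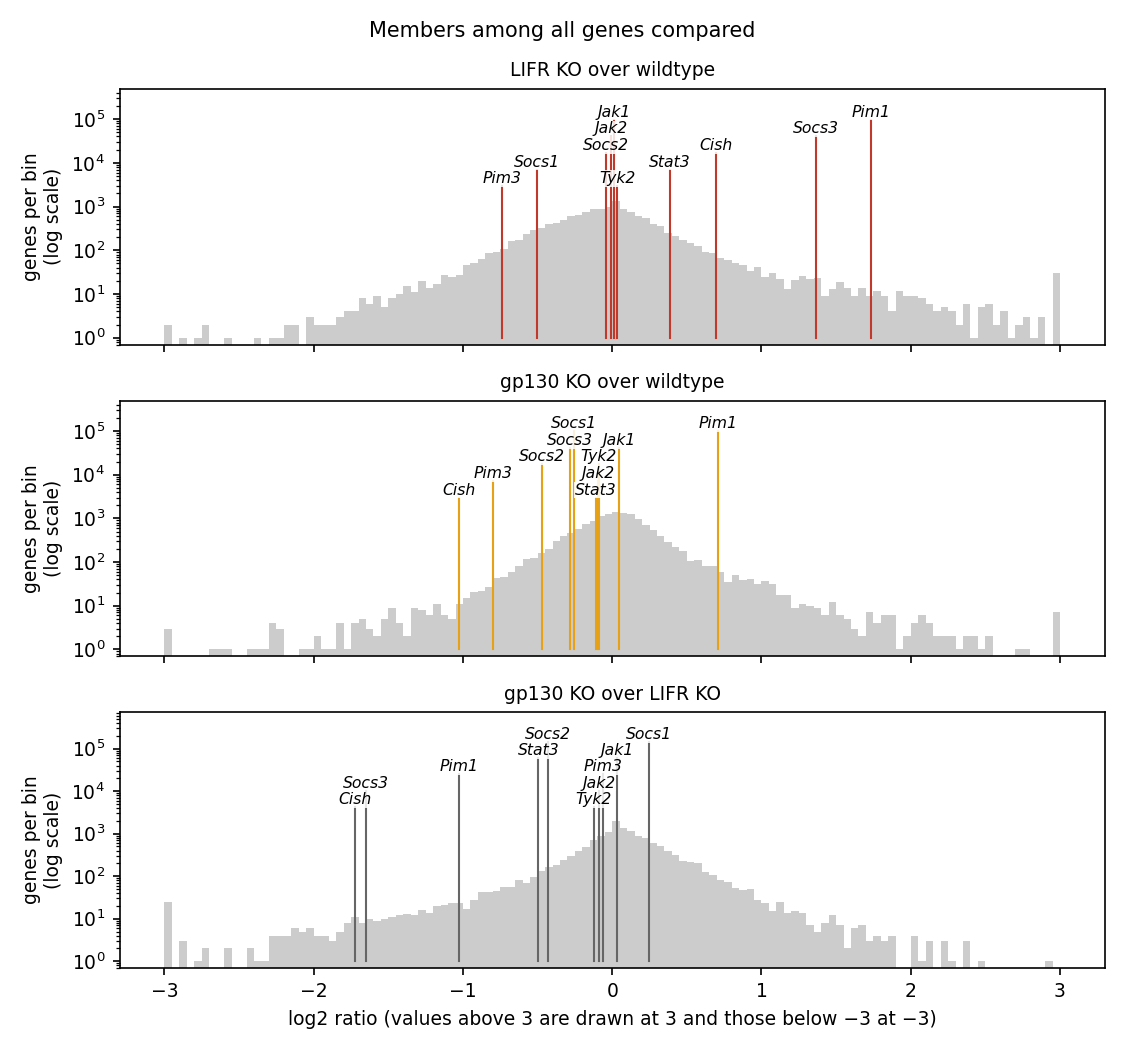
Log2 ratios of all genes compared (grey, genes per bin on a log axis) with the 10 members as labelled lines, for the LIFR KO over wildtype, the gp130 KO over wildtype and the gp130 KO over LIFR KO arrays. Values beyond 3 are drawn at 3. Pim1 and Socs3 stand in the upper tail of the first panel, and Cish and Socs3 in the lower tail of the last.

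For the 3 members past 2-fold, the genes with the most similar profile were named by the smallest distance between the 3 log2 values of the arrays, each taken relative to the gene's own mean, among the other 13092 genes that were detected on every array and free of stray light. Closest to Socs3 were Slc25a29, Gadd45b and Zfp974, at distances of 0.07, 0.08 and 0.11. Gadd45b had log2 ratios of 1.37 for the LIFR KO array over wildtype and -0.38 for the gp130 KO array over wildtype. Closest to Cish were Nog, Plk3 and Nod2, at 0.08, 0.14 and 0.18, and Nog had 0.68 and -0.94 in the same comparisons. Closest to Pim1 were Hey1, Cbx8 and Casz1, at 0.08, 0.08 and 0.09, and Hey1 had 1.82 and 0.68.

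The other JAK, STAT and PIM genes had no member past 2-fold, against 4.49% of all genes on the LIFR KO array and 2.39% on the gp130 KO array. Of 8 genes, 6 were compared. The median log2 ratio was -0.12 on the LIFR KO array and -0.05 on the gp130 KO array. Stat5b, which carries growth hormone and prolactin signals, had a scaled signal of 1727% on the LIFR KO array, 1926% on the gp130 KO array and 2586% on the wildtype array. Stat6, the factor of interleukin 4 signalling, had 220.4, 299.7 and 324%. Both were highest on the wildtype array, with log2 ratios for the LIFR KO array of -0.58 for Stat5b and -0.56 for Stat6.

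None of the other negative regulators was counted as 2-fold apart, against the same 4.49 and 2.39% of all genes. Of 16 genes, 15 were compared on the LIFR KO array, with a median of -0.01 and ratios from -0.32 to 0.64, and 16 on the gp130 KO array, with a median of -0.12 and ratios from -0.32 to 0.86. The value of 0.86 is that of Pias3, which was detected on the gp130 KO array and not on wildtype, so that it is a lower bound and leaves a larger difference possible. Ptpn11, the gene of the phosphatase SHP2 that binds gp130, had log2 ratios of 0.12 for the LIFR KO array and 0.15 for the gp130 KO array over wildtype. Dusp3, a phosphatase gene, had -0.29 and -0.32.

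Upstream of the kinases, 3 of the 22 receptor and ligand genes compared, all ligand genes, were lower on the LIFR KO array, against 1.62% of all genes. None was higher, against 2.87%. Lif had a scaled signal of 15.5% on the LIFR KO array, 31.9% on the gp130 KO array and 104% on the wildtype array. Clcf1, the gene of another ligand that signals through gp130, had 9.35, 17.7 and 27.9%. Both knockout arrays were below wildtype for each, and the LIFR KO array was lowest. Il6 was detected on the wildtype array only, with a signal at least 2.46-fold lower on the LIFR KO array. It was lower by at least 3.70-fold on the gp130 KO array. The bounds differ through the lowest unscaled signal well above background, 16.7 on the LIFR KO array and 9.66 on the gp130 KO array. Il6 was not compared between the knockout arrays. Lif and Il6 were the 2 genes past 2-fold on the gp130 KO array, both lower, against 0.784% of all genes. The brightest receptor genes, Ghr for growth hormone and Ifngr1 for interferon gamma, had log2 ratios of 0.02 and 0.12 on the LIFR KO array and of -0.0038 and 0.16 on the gp130 KO array.

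Other known STAT3 target genes went both ways on the LIFR KO array. Of 25, 22 were compared there, with 4 genes past 2-fold upward, against 2.87% of all genes, and 4 downward, against 1.62%. The median log2 ratio of the 22 was -0.08. Gadd45g, a stress and growth arrest gene, had 658% on the LIFR KO array, 145% on the gp130 KO array and 120.4% on the wildtype array, and was 5.46-fold higher on the LIFR KO array. The immediate-early gene Fos had 28.5, 3.83 and 6.66%, which made it 4.27-fold higher on the LIFR KO array and gave a log2 ratio of -0.80 on the gp130 KO array. Junb, another AP-1 gene, and Irf1, a factor of interferon responses, were 2.44-fold and 2.29-fold higher on the LIFR KO array. For all 4 the LIFR KO array was the high one, as it was for Socs3.

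The 4 target genes past 2-fold downward on the LIFR KO array had ratios below 0 on the gp130 KO array too. So did 15 of all 23 target genes compared there, and both ratios share the wildtype array. Cebpd, a transcription factor gene of the acute phase response, had 89.4% on the LIFR KO array, 173% on the gp130 KO array and 359.9% on the wildtype array, 4.03-fold and 2.08-fold lower. Myc had 438, 1113 and 1552%, 3.54-fold lower on the LIFR KO array with a log2 ratio of -0.48 on the gp130 KO array. Rgs16, which restrains G protein signalling, was 2.78-fold lower on the LIFR KO array and 6.01-fold lower on the gp130 KO array. Ier3 was 2.76-fold lower on the LIFR KO array and had a log2 ratio of -0.87 on the gp130 KO array. Of the 23 target genes compared on the gp130 KO array, Cebpd and Rgs16 were the 2 past 2-fold, both lower, against 0.784% of all genes. None was higher, against 1.61%, and the median was -0.32. The brightest, Cebpb and Bcl2l1, had log2 ratios of 0.30 and -0.07 on the LIFR KO array and of 0.11 and -0.10 on the gp130 KO array. Gbx2 and Fgl2 were not detected on any array.

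**Figure D5:**
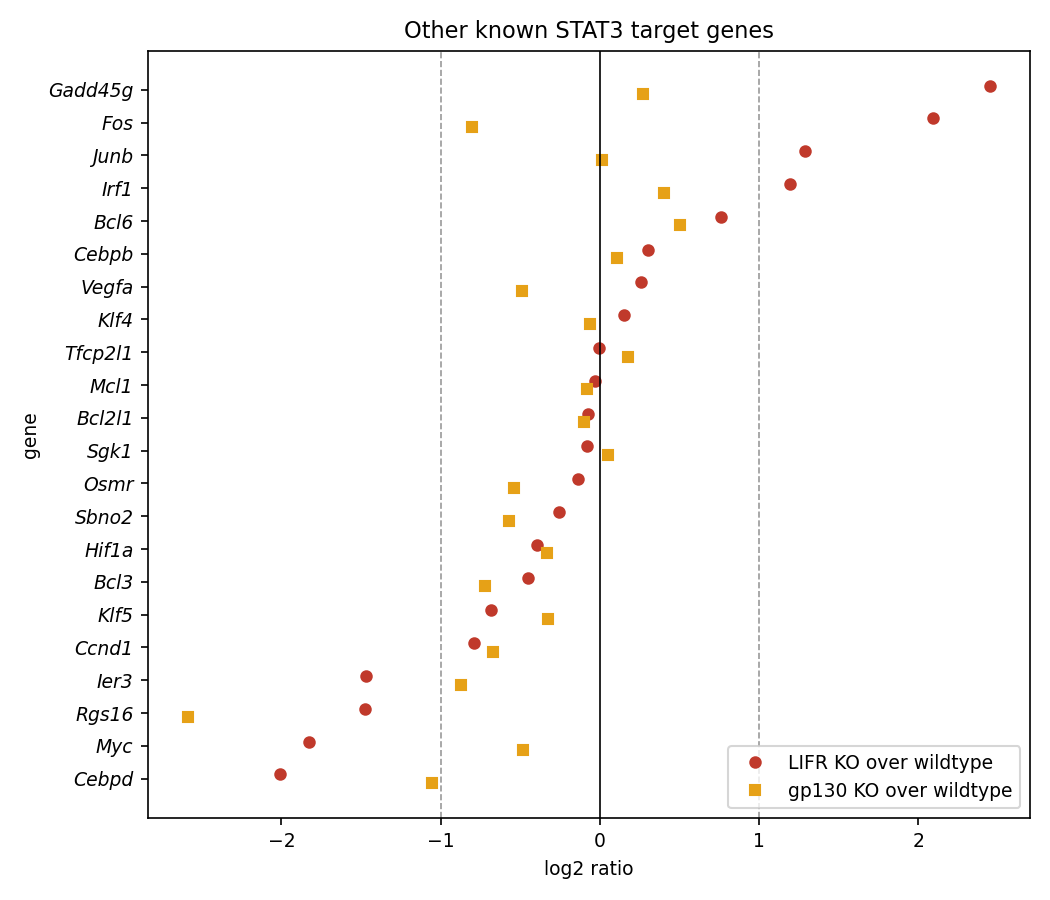
Log2 ratios of the 22 other STAT3 target genes compared on the LIFR KO array, for the LIFR KO array over wildtype (circles) and the gp130 KO array over wildtype (squares), ordered by the first, with dashed lines at 2-fold. Genes at the top, from Gadd45g to Irf1, are past 2-fold on the LIFR KO array only, and Cebpd and Rgs16 at the bottom are past it on both.

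Between the knockout arrays, 4 of 23 of these target genes were at least 2-fold lower on the gp130 KO array, against 2.05% of all genes. They were Fos at 7.44-fold, Gadd45g at 4.53-fold, Junb at 2.42-fold and Rgs16 at 2.16-fold. Myc alone was at least 2-fold higher, by 2.54-fold, against 1.29% of all genes. The direction of the markers of other cell types differed by list. Of 8 fibroblast markers compared on the LIFR KO array over wildtype, Col1a1 was 3.23-fold higher and none was past 2-fold downward, with 3 ratios above 0, 3 below 0 and a median of 0. On the gp130 KO array over wildtype Dcn was 2.08-fold higher, with 7 ratios above 0 and 1 below 0. The median there was 0.37, against 0.03 over all genes. Of 10 epithelial markers, Cldn4 was 2.20-fold higher on the LIFR KO array, with 7 ratios above 0, 3 below 0 and a median of 0.15, and Esrp1 had -0.72. None passed 2-fold on the gp130 KO array, where the median was 0.06. The 4 blood cell markers all had ratios below 0 on the LIFR KO array, none past 2-fold, with a median of -0.38 and -0.84 for Cd3e. On the gp130 KO array over wildtype their median was -0.14. All 4 had ratios above 0 for the gp130 KO over the LIFR KO array, with a median of 0.29. Of 8 pluripotency markers compared, none was past 2-fold. On the LIFR KO array over wildtype 3 ratios were above 0 and 5 below 0, with a median of -0.38. The gp130 KO array over wildtype had 4 above and 4 below, with a median of 0.04. For the gp130 KO over the LIFR KO array 6 were above and 2 below, with a median of 0.42. The part of any of these cell types in the values of Socs3 and Pim1 was not tested.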

How the data were processed

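Total RNA of 3 cell samples was labelled with Cy3 and hybridised to 1 array each, per the labels. Feature Extraction 11.0.1.1 read the arrays, whose design 026655 rests on genome build mm9, per the file headers, while the submitters' processing notes name version 9.1. The deposited intensity is the software's processed signal, background-subtracted and detrended and not normalised between arrays, per the file headers, and the deposited flags, another kind of value of 0 or 1, mark outliers and spots well above background. The deposited log2 values of the series matrix, an alternative here, have equal medians of 5.38, and how the authors made them is not given in the sources used here.

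Outlier spots and control probes were left out. Log2 signals of the spots of a probe were averaged, and the array's 75th percentile over spots was subtracted. Accessions named 27234 of 39429 probes through RefSeq, and the brightest probe was read for each gene. Genes above background on at least 1 of 2 arrays were compared. Where only 1 was, the ratio is a lower bound against the lowest signal well above background on the other array, or the dim probe's own if higher. The array number limits the precision. Python 3.11.15, limma 3.58.1 and matplotlib 3.10.9 were used, and the ratio calculation was tested on simulated data. The members and lists were chosen with earlier results of these data known. The named genes are all members, the list genes past 2-fold, the 2 brightest of each list and the nearest profiles. A few others (Pias3, Lifr, Il6st, Pou5f1, Col1a1, Dcn, Vim, Cldn4, Esrp1, Cd3e and genes not detected) were named after their values were seen.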

Additional observations from a re-analysis of the deposited data

Results flagged for a closer look

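Cish lay on opposite sides of wildtype on the knockout arrays, with a log2 ratio of 0.70 for the LIFR KO array and of -1.03 for the gp130 KO array, each by more than the scanner software's error. With 1 array per genotype the difference was not tested against the scatter of cultures. A signal outside the main measurement was the local background of the LIFR KO array, which reached 25884, against a highest value of 51 on the gp130 KO array and 57 on the wildtype array. No spot of the 10 genes lay in it.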

How the results depend on the processing

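In 13 alternative settings no member past 2-fold changed direction. Pim1 on the LIFR KO array ranged from 0.74 to 1.91 over wildtype, Socs3 from 1.27 to 1.54 and Cish on the gp130 KO array from -1.05 to -0.61. Background correction by normexp, which adds 50 to each signal and so compresses dim genes, gave Pim1 0.74 on the LIFR KO array and left 1 member higher, with 1.01 when fitted without stray light. On the gp130 KO array over wildtype the same 2 fits gave Cish -0.61 and -0.77, leaving 0 members lower, Pim1 0.22 and 0.31, and with all spots Socs2 -0.26. For the gp130 KO over the LIFR KO array they gave Cish -1.13 and -1.39 and Pim1 -0.52 and -0.69. The second Stat3 probe gave 0.60 on the LIFR KO array. Scaling to the median moved the median of all genes on the LIFR KO array over wildtype from -0.03 to 0.11. Relative to each setting's own median of all genes, Socs3 lay between 1.28 and 1.42 and Pim1 between 0.76 and 1.84 over all settings, while the signs of Socs2, Jak1 and Jak2 on that array turned between settings.

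Counts over all genes depended on the setting. On the LIFR KO array over wildtype the higher genes numbered 90 and 119 with the 2 normexp fits, 253 with both arrays above background and 649 with no filter on dim probes, and the lower genes 147 with median scaling, 144 with no scaling, 50 and 63 with normexp and 1018 with no filter. On the gp130 KO array over wildtype the higher genes numbered 3 and 11, 78, 654, and 146 with the lowest single spot as floor, and the lower genes 28 and 33 with normexp, 66 with both arrays above background and 594 with no filter. For the gp130 KO over the LIFR KO array the higher genes numbered 113 with no scaling, 17 and 29 with normexp, 124 with both arrays above background and 969 with no filter, and the lower genes 65 and 84, 184 and 564. Leaving out a replicate was not possible with 1 array per group. No paired analysis was possible because each group has 1 array.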
